A study of Mus musculus with 20 samples.

Results

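The early erythroid identity genes are 9 genes grouped here as markers of red cell commitment in marrow progenitors and the steps just after it. They are the transcription factors Gata1, Klf1, Tal1 and Nfe2, the erythropoietin receptor Epor and the transferrin receptor Tfrc. The others are the red cell anion exchanger Slc4a1 and the carbonic anhydrases Car1 and Car2. Not all are specific to early red cells, and in these mice Nfe2 varied against the other 8 within groups (r from -0.80 to -0.55). The symbols of the 9 genes were matched to the identifiers of the gene count table, and all 9 were found among 37620 genes. The 9 were chosen on their gene counts across the 4 groups of mice, so their levels and the differences between groups are given here as a description, with standard errors and without tests. Tests are given for which splice junction each gene used, which the choice did not use, and for the levels of other erythroid genes. The lists of those other genes were also made with earlier results of these data known, and some of them followed the 9 genes from mouse to mouse, so their tests are not independent support for the members.

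Bulk bone marrow RNA from 20 recipient mice was sequenced, 5 in each of 4 groups. The donor marrow carried an rtTA transgene and a doxycycline-inducible transgene, which encoded either U2AF1(S34F), a mutant of the splicing factor that recognizes the AG at the end of introns, or U2AF1(WT), its wild-type control. All recipients were fed doxycycline chow at 625 ppm for 7 days after at least 6 weeks of engraftment, so the transgene was on in every group. During the last 5 of those days each mouse received, through a jugular catheter, either sudemycin D6, a small molecule that acts on the SF3B1 component of the spliceosome, or vehicle. By transgene and infusion, the groups are called WT-vehicle, WT-sudemycin, S34F-vehicle and S34F-sudemycin, and WT or S34F mice are both groups of one transgene. Donor cells were pooled from several mice before transplantation, so the 5 mice of a group are separate recipients of partly shared donor marrow and their spread does not include all of the variation between donors. By the study's methods, donors and recipients were adolescent or young adult mice at transplantation, and each donor and recipient were of one sex.

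In red cell formation, GATA1 and TAL1 bind together at erythroid enhancers and promoters, and KLF1 binds CACCC motifs at globin and red cell membrane genes. NF-E2, of which Nfe2 encodes the larger subunit, acts on globin genes and is also made in megakaryocytes, mast cells and granulocyte precursors. Erythropoietin, bound by its receptor, keeps early erythroid cells alive, TFRC brings in the iron for heme, and CAR1, CAR2 and SLC4A1 carry out the handling of carbon dioxide. Gata1 and Tal1 are not restricted to the red lineage, since megakaryocytes, eosinophils and mast cells use one or both of them.

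Gene counts summed to between 41145892 and 62138138 per mouse. No pair of replicates of a group agreed within sampling noise. Counts of Xist were 39145 to 78640 in the 10 WT mice and 1 to 8 in the 10 S34F mice, while 4 Y-linked genes summed to 0 to 4 and 10270 to 15034 counts, respectively. These counts are those of female marrow in the WT mice and male marrow in the S34F mice. Genotype and sex therefore cannot be told apart, for any gene, in a comparison between S34F and WT mice. The comparisons of drug and vehicle each lie within one pattern, but a difference between the drug effects of WT and S34F mice does not. In bulk marrow, fewer cells of a type and less RNA per cell cannot be told apart.

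The sequences upstream of 3 members are shown because these are the members whose promoter sequences held a GATA word. Promoter sequences of 5 of the 9 members (Gata1, Klf1, Tal1, Epor and Tfrc) were found in a RefSeq table on build GRCm38.p6, with 7 start sites in all. The 250 bases before each start are given 5′ to 3′ on the strand of the gene, and capitals mark the word AGATAA, the related word TGATAA and the KLF1 word CACCC, each read on either strand. The Tal1 sequence lies before the more upstream of its 2 starts at chr4:115056176-115056425 (+), that of Klf1 at chr8:84901732-84901981 (+) and that of Epor at chr9:21963577-21963826 (−).
Tal1: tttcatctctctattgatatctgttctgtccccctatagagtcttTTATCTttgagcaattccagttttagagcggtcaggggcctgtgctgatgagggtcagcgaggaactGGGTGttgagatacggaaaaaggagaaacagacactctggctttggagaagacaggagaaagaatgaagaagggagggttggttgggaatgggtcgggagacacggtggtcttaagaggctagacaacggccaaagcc
Klf1: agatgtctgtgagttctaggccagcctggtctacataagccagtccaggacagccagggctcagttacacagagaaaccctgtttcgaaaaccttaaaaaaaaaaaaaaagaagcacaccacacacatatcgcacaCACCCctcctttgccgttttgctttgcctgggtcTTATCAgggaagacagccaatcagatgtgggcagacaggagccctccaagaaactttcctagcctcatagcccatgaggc
Epor: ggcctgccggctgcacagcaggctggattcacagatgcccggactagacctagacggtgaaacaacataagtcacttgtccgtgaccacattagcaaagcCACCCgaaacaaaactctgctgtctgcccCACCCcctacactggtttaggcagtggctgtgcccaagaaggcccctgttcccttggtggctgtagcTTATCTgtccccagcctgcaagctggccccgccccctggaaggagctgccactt

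Of all 32851 promoter sequences in the table, 9.99% held AGATAA, 7.94% held TGATAA and 52.0% held CACCC, on either strand. AGATAA occurred once before Tal1 and once before Epor, and TGATAA occurred once before Klf1. Before Gata1, the 250 bases held CACCC 2 times and neither GATA word. The E-box CANNTG, a word that TAL1 and its partners bind, was held by 66.2% of all the sequences, and it occurred 2 times before Epor and once each before Klf1, Gata1 and one of the 2 starts of Tfrc. These are matches of letters, and binding was not measured in these mice.

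Per kilobase of exon, the 9 genes ranked in WT-vehicle mice from Nfe2, at 72.1 ± 5.48 counts per 1e6 counts (CPM) per kb (SD, n = 5), to Epor, at 1.26 ± 0.292. Car1 (35.4 ± 7.90) and Car2 (33.8 ± 7.01) followed Nfe2 and did not differ from each other beyond their spread. Tfrc came next with 14.6 ± 1.67, then Slc4a1 with 6.04 ± 2.51 and Klf1 with 4.55 ± 0.881. The values of Slc4a1 overlapped those of Klf1 within 1 SD, as did those of Klf1 and Tal1, at 3.76 ± 0.632. Gata1 stood at 2.86 ± 0.590, and only Nfe2 was above Car1 and Car2. All values below are CPM of a gene without division by its length, unless stated, and counts were scaled by TMM over the 20 mice.

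The transcription factor genes were described first. Gata1, which encodes the zinc finger factor required for red cell and megakaryocyte maturation, had 5.44, 5.85, 6.72, 8.12 and 8.78 CPM in the 5 WT-vehicle mice. In WT-sudemycin mice it had 3.75, 4.25, 6.36, 9.10 and 9.56 CPM, and in S34F-vehicle mice 3.36, 4.06, 4.31, 5.42 and 7.70 CPM. In S34F-sudemycin mice it had 2.06, 2.08, 2.35, 3.52 and 3.93 CPM, all under the lowest WT-vehicle mouse. Of the WT-sudemycin mice, 2 lay below and 2 above the WT-vehicle range. With the drug in S34F mice the mean was lower, by a log2 difference of -0.83 ± 0.25 (SE). Gata1 was also the member that differed most between the genotypes under vehicle, with a log2 difference of -0.51 ± 0.21, and under sudemycin D6 the difference between the genotypes was -1.25 ± 0.30. Gata1 lies on the X chromosome (chrX:7536386-7555197 of mm9), and the genotypes also differ in Xist.

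Klf1, which encodes the activator of adult globin and red cell membrane genes, had 5.45, 6.08, 6.86, 7.57 and 8.93 CPM in WT-vehicle mice. With sudemycin D6, WT mice had 2.66, 3.12, 3.66, 9.01 and 13.7 CPM, so that every mouse lay outside the vehicle range, 3 below it and 2 above it. S34F-vehicle mice had 2.56, 3.21, 3.76, 8.46 and 10.7 CPM, and S34F-sudemycin mice had 1.25, 2.16, 2.24, 3.12 and 4.09 CPM. The last of these groups overlapped S34F-vehicle mice and did not overlap WT-vehicle mice. The log2 difference for the drug was -1.16 ± 0.43 (SE) in S34F mice and -0.13 ± 0.42 in WT mice. Under sudemycin D6 the genotypes differed by -1.34 ± 0.47. Without mouse 6 of the WT-sudemycin group, the highest of all for Klf1, the drug difference in WT mice was -0.61 and the genotype difference -0.85.

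Tal1, whose product pairs with GATA1 in a common complex, had 12.9 to 19.6 CPM in WT-vehicle mice (median 17.4) and 12 to 22 CPM in S34F-vehicle mice (median 15.5). With sudemycin D6 the S34F mice had 7.88, 9.23, 9.66, 11.4 and 11.5 CPM, below every vehicle-treated mouse of either genotype. The WT-sudemycin mice had 8.04, 10.1, 10.3, 18.4 and 19.6 CPM and spanned both ranges. The log2 difference for the drug was -0.65 ± 0.16 (SE) in S34F mice and -0.32 ± 0.24 in WT mice, where it was -0.51 without mouse 6 and -0.19 without mouse 9 of the treated group. Tal1 and Car1 were the 2 members whose 5 S34F-sudemycin and 5 S34F-vehicle mice did not overlap. The share of all genes without overlap is not given here, so nothing is read from that count. By another measure, 5.85% of all genes were called lower in this comparison (edgeR, FDR<10%).

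Nfe2 had the highest counts of the 9 genes, and its log2 differences stayed between -0.29 and 0.02. It had 201 to 242 CPM in WT-vehicle mice (median 210) and 192 to 270 CPM in WT-sudemycin mice (median 194). The S34F mice had 174 to 214 CPM with vehicle (median 195) and 153 to 197 CPM with sudemycin D6 (median 192). For the drug, the log2 difference was 0.02 ± 0.12 (SE) in WT mice and -0.11 ± 0.09 in S34F mice. The 5 S34F-sudemycin mice were all below the 5 WT-vehicle mice, by 0.25 ± 0.09 on the log2 scale, the least of the members whose values in these 2 groups did not overlap.

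Epor, the receptor through which erythropoietin signals, was the rarest member, with 28 to 264 counts per mouse. WT-vehicle mice had 1.67, 1.79, 2.69, 2.70 and 2.72 CPM, and WT-sudemycin mice had 0.943, 1.30, 1.91, 3.64 and 4.76 CPM. S34F-vehicle mice had 0.886, 1.29, 1.68, 2.38 and 4.44 CPM, and S34F-sudemycin mice had 0.544, 0.556, 0.842, 1.19 and 1.24 CPM. The S34F-sudemycin group lay below every WT-vehicle mouse, and 3 of its 5 mice lay below every S34F-vehicle mouse. The drug gave a log2 difference of -1.29 ± 0.41 (SE) in S34F mice, or -0.84 without mouse 3 of the vehicle-treated group, and 0.11 ± 0.39 in WT mice, or -0.26 without mouse 6 of the treated group. Between the genotypes under sudemycin D6 the log2 difference of -1.54 ± 0.44 was the largest of the members in that comparison.

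Tfrc, which imports iron bound to transferrin, and Slc4a1, the anion exchanger known as band 3, overlapped in all 5 comparisons. Tfrc had 76.9 to 105 CPM in WT-vehicle mice, 48.1 to 119 CPM in WT-sudemycin mice, 69.9 to 141 CPM in S34F-vehicle mice and 47.1 to 92.6 CPM in S34F-sudemycin mice. Slc4a1 had 18 to 50.1, 16.7 to 65.9, 15.1 to 55.5 and 17.6 to 36.5 CPM in the same order of groups. The drug in S34F mice gave log2 differences of -0.37 ± 0.24 (SE) for Tfrc and -0.29 ± 0.35 for Slc4a1, and WT-vehicle and S34F-sudemycin mice differed by -0.20 ± 0.16 and -0.21 ± 0.28. Single mice set the sign or size of these values, since Slc4a1 was 0.03 with the drug without mouse 3 of the S34F-vehicle group and 0.07 in the last comparison without mouse 1 of the WT-vehicle group, where Tfrc was -0.07 without mouse 6 of the S34F-sudemycin group. These 2 genes are also made by later erythroid cells, and Tfrc by most dividing cells.

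Of the carbonic anhydrase genes, whose enzymes interconvert carbon dioxide and bicarbonate, Car1 had the largest drug difference of the 9 genes in both genotypes. Car1 had 32.3, 34.2, 42.5, 44.1 and 55.7 CPM in WT-vehicle mice and 23.4, 26.0, 31.0, 56.8 and 66.6 CPM in S34F-vehicle mice. With sudemycin D6 the WT mice had 9.73, 10.1, 12.7, 32.4 and 40.1 CPM and the S34F mice had 4.19, 8.93, 9.87, 12.2 and 19.9 CPM. All 5 S34F-sudemycin mice lay below all 10 vehicle-treated mice, and 3 of the 5 WT-sudemycin mice lay below the vehicle-treated mice of their genotype. The mean of S34F-sudemycin mice was 3.7-fold below that of their vehicle-treated controls (log2 difference -1.89 ± 0.43, SE). In WT mice the mean with the drug was 1.99-fold below that with vehicle (-1.0 ± 0.42).

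Car2 had 46.2, 52.3, 58.6, 66.6 and 78.3 CPM in WT-vehicle mice and 22.3, 23.3, 31.5, 67.7 and 106 CPM in WT-sudemycin mice. In S34F mice it had 32.9, 33.1, 43.3, 71.4 and 99.95 CPM with vehicle and 18.8, 21.5, 27.2, 33.0 and 36.7 CPM with sudemycin D6. The drug difference in S34F mice was -1.03 ± 0.33 (SE) on the log2 scale, and 3 of the 5 treated mice were below all vehicle-treated mice. In WT mice it was -0.28, or -0.76 without mouse 6 and -0.09 without mouse 8 of the treated group. Between the genotypes under sudemycin D6, Car1 and Car2 differed by -0.95 ± 0.47 and -0.89 ± 0.41. Without mouse 6 of the WT-sudemycin group these were -0.57 and -0.41.

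**Figure D1:**
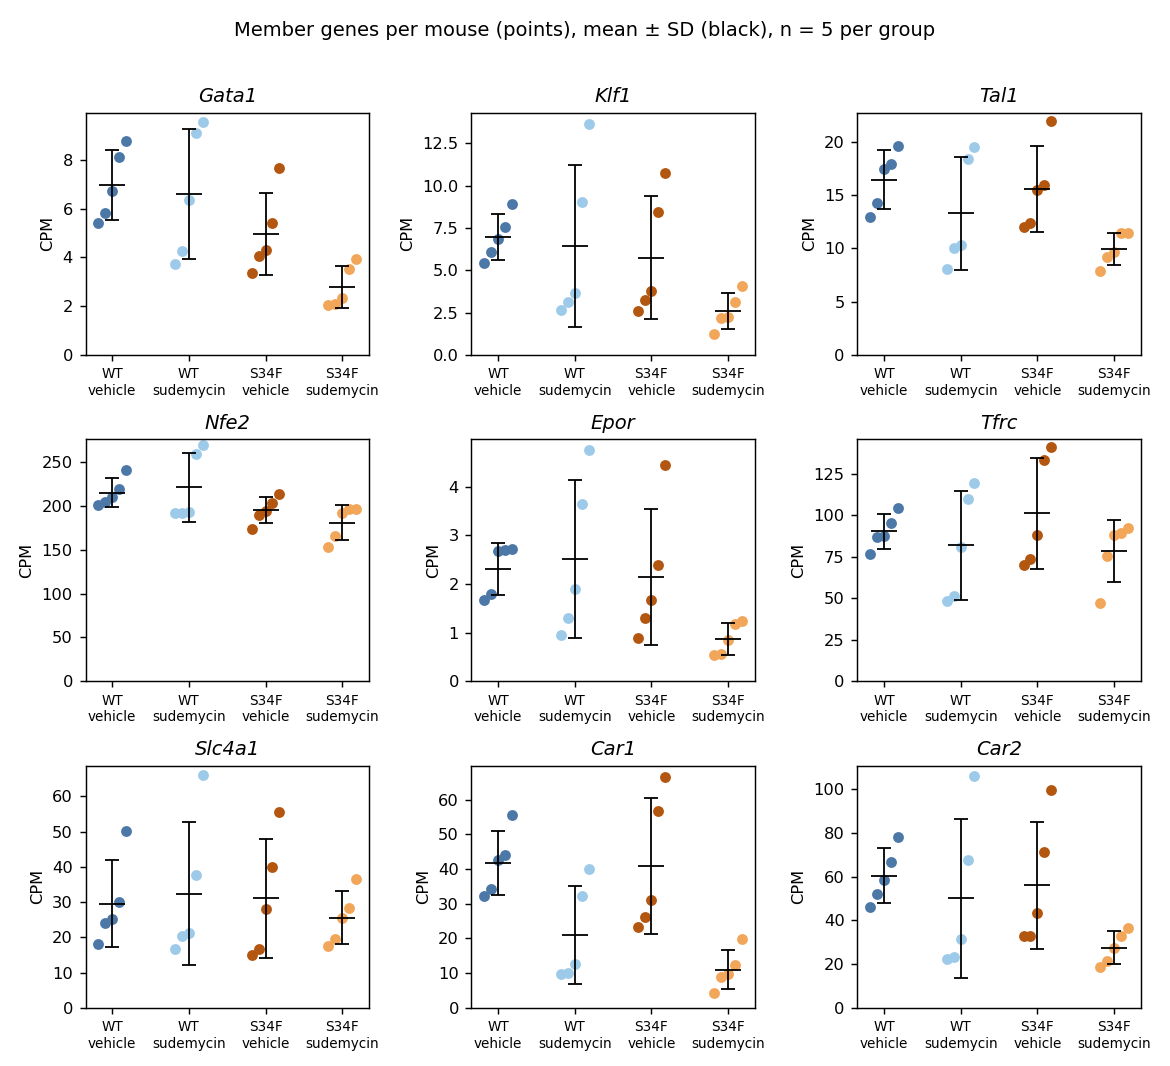
Level of each of the 9 genes in CPM (vertical axis from 0, one scale per gene) in the 4 groups of 5 mice. Points are mice and black lines are the mean ± SD. In S34F-sudemycin mice Car1 stands at 4.19 to 19.9 CPM, below all vehicle-treated mice, while Slc4a1 and Tfrc overlap in all 5 comparisons.

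Between the genotypes under vehicle, the log2 differences of the members ran from -0.51 for Gata1 to 0.15 for Tfrc, and without mouse 3 of the S34F-vehicle group from -0.70 for Gata1 to 0.02 for Tfrc. At an FDR<10% over all genes in edgeR, 0 of the 9 were called lower with the drug in WT mice (1.89% of all genes tested), 5 with the drug in S34F mice (5.85%), 1 between the genotypes under vehicle (19.8%), 4 between the genotypes under sudemycin D6 (19.6%) and 7 between WT-vehicle and S34F-sudemycin mice (25.1%), and none was called higher (1.18%, 4.94%, 19.7%, 17.2% and 25.1% of all genes). Nothing is read from these counts, since the members were selected on the same values. The median of all genes tested lay between -0.03 and 0.004 on the log2 scale in these 5 comparisons.

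The 7 members called in the last comparison, in which 25.1% of all genes were called lower, had no overlap between its 2 groups. The share of all genes without overlap is not given here, and nothing is read from that count either. These 7 members had log2 differences of -1.92 ± 0.35 (SE) for Car1, -1.44 ± 0.26 for Klf1, -1.40 ± 0.27 for Epor, -1.32 ± 0.21 for Gata1, -1.14 ± 0.19 for Car2, -0.73 ± 0.13 for Tal1 and -0.25 ± 0.09 for Nfe2. The drug difference in S34F mice minus that in WT mice was below 0 for all 9 genes, from -1.41 ± 0.61 for Epor to -0.15 ± 0.15 for Nfe2. The 2 drug comparisons do not share mice and differ in sex as well as genotype, which cannot be told apart here either. Without mouse 6 of the WT-sudemycin group the difference of the drug effects was 0.014 for Slc4a1, -0.30 for Car2, -0.53 for Car1 and -0.57 for Klf1. In a model of all 20 mice, 0 of the 9 members and 2 of 15392 genes (0.013%) were called for this interaction in edgeR. Of all genes, 1144 had an unadjusted p below 0.05, and 116 were called in DESeq2. The median of all genes for this difference was -0.04. The members other than Nfe2 varied together from mouse to mouse, so the shared sign is not 9 separate results.

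**Figure D2:**
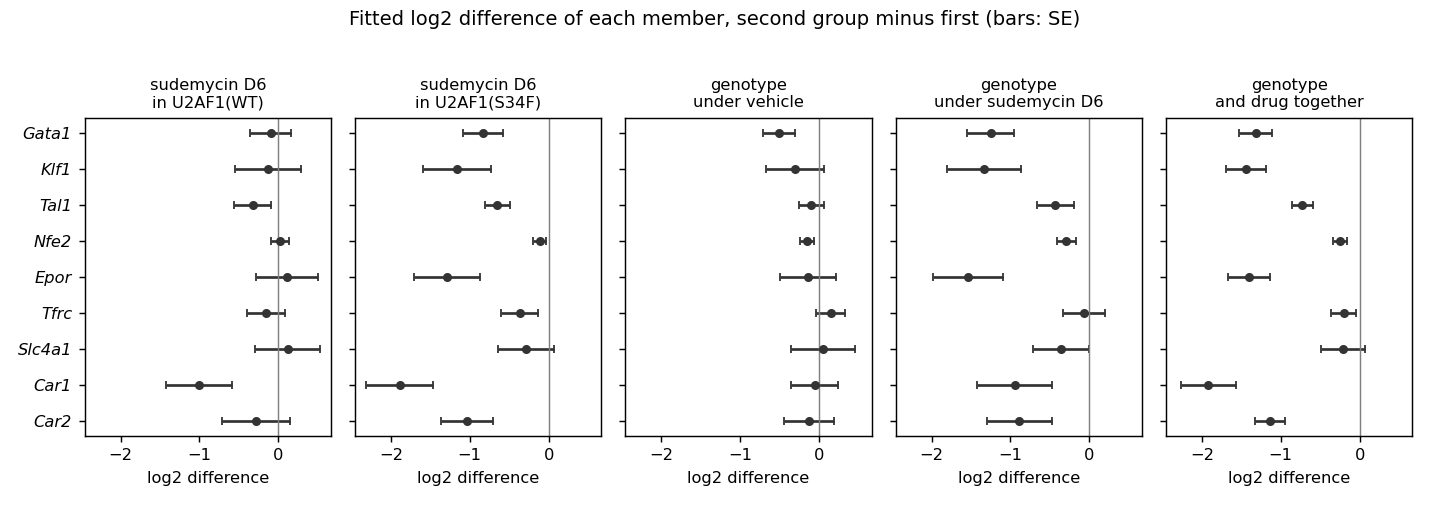
Fitted log2 difference of each gene (points) with its standard error (bars) in 5 comparisons, the second group minus the first. All drug differences in S34F mice and all those for genotype and drug together lie left of 0, from -1.92 for Car1, while those between the genotypes under vehicle lie between -0.51 and 0.15.

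In 2 of the groups, the same mice were high or low for 8 of the 9 genes. Among WT-sudemycin mice, mice 6 and 10 ranked first and second for all 8 members other than Nfe2, and mouse 9 was in the lowest 2 for all 8. Among S34F-vehicle mice, mice 3 and 1 ranked first and second for the same 8 genes, and mouse 5 was in the lowest 2 for all 8. The other groups were more mixed, for example in mouse 12 of the S34F-sudemycin group, where Slc4a1 was 0.57 and Tfrc 0.23 above the group mean in log2 CPM and Gata1 was at -0.38. After subtraction of the group means from the log2 CPM, the 28 pairs among these 8 genes had Pearson r values from 0.68 to 0.97 over the 20 mice, with a median of 0.86. The highest was that of Car2 and Klf1. For Nfe2, the 8 pairs had r values from -0.80 with Tfrc to -0.55 with Slc4a1, with a median of -0.73. The points of these correlations share libraries and scaling, so they are given as a description.

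**Figure D3:**
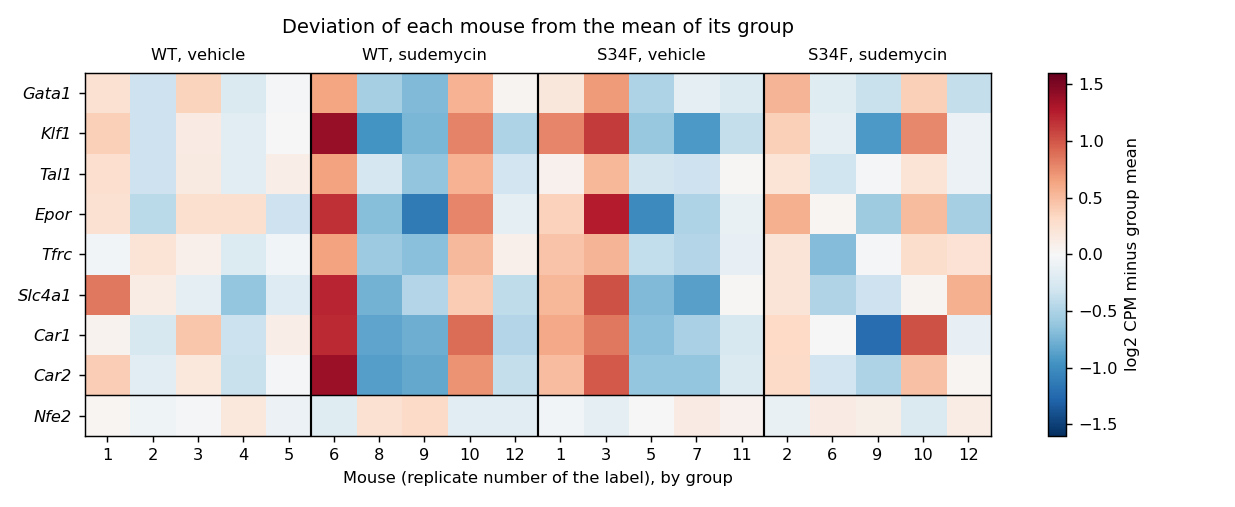
Deviation of each mouse from the mean of its group in log2 CPM (colour, red above and blue below the mean) for the 9 genes (rows) and 20 mice (columns, with the replicate numbers of the labels). Mice 6 and 10 of the WT-sudemycin group and mice 1 and 3 of the S34F-vehicle group are above their group mean for 8 genes and below it for Nfe2.

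The spread was uneven between groups. The highest mouse exceeded the lowest by 1.73-fold for Car1 and 1.64-fold for Klf1 in WT-vehicle mice, and by 4.12-fold and 5.14-fold in WT-sudemycin mice. In S34F-vehicle mice the same ratios were 2.85 and 4.18, and in S34F-sudemycin mice 4.75 and 3.27. For Nfe2 the ratio was between 1.2 and 1.41 in all groups. With 5 mice per group, a mean for the drug in WT mice thus averages over mice above and below the vehicle range for 7 members, while for Car1 and Tal1 no treated mouse was above it.

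Relative to Slc4a1 of the same mouse, Car1 was lower with the drug in both genotypes. Slc4a1 is itself a member and is also made by later erythroid cells, so these ratios cannot tell red cell content from cell stage. The log2 ratio of Car1 to Slc4a1 was 0.56 ± 0.57 (SD, n = 5) in WT-vehicle and -0.69 ± 0.29 in WT-sudemycin mice, and the highest treated mouse (-0.21) was just above the lowest vehicle-treated mouse (-0.24). In S34F mice the ratio was 0.44 ± 0.24 with vehicle and -1.33 ± 0.79 with sudemycin D6, without overlap. For Car2 it was 1.09 ± 0.35 and 0.54 ± 0.25 in WT mice, and 0.88 ± 0.18 and 0.11 ± 0.37 in S34F mice, where the groups did not overlap. In S34F mice Epor was also lower without overlap, at -3.88 ± 0.29 and -4.84 ± 0.69. With overlap, Klf1 was -2.48 ± 0.25 and -3.35 ± 0.60, Gata1 -2.52 ± 0.46 and -3.18 ± 0.55, and Tal1 -0.85 ± 0.47 and -1.32 ± 0.38. Nfe2 was 2.82 ± 0.90 and 2.87 ± 0.48. The share of all genes without overlap is not given here, so nothing is read from the separation. The ratio of Tfrc to Slc4a1 was 1.69 ± 0.51, 1.43 ± 0.41, 1.82 ± 0.36 and 1.63 ± 0.28 in the 4 groups, and the ranges of the 4 groups overlapped. The ratios rest on the same counts that chose the genes.

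The genes most like the mean of the 9 over the 20 mice, among 12217 other genes with a mean of at least 1 CPM, included several of the red cell membrane. Pearson r was 0.98 for Aqp1, the water channel of the red cell membrane, 0.97 for Hemgn, a GATA1 target of haematopoietic nuclei, 0.97 for Abcb4, 0.96 for Gfi1b, an erythroid and megakaryocytic repressor, and 0.95 for Mboat2. The next 5 were Kel, Rhag and Rhd, which encode blood group proteins of the membrane, with r of 0.951, 0.950 and 0.946, and Spire1 and Slc38a5, each with 0.94. For single members, the nearest gene was Pcyt1b for Car1 (r = 0.94), Hemgn for Car2 (0.97), Pklr, the red cell pyruvate kinase, for Gata1 (0.94), Abcb4 for Klf1 (0.97), and Aqp1 for Epor (0.95) and Tal1 (0.93). Trim10 was nearest to Slc4a1 (0.93) and Gclc, which makes the first intermediate of glutathione, to Tfrc (0.89). Nfe2 stood apart, since its nearest gene was Padi4, a neutrophil enzyme that citrullinates histones, with r = 0.97 and a mean of 379 CPM.

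Markers of other marrow cells moved with some of these values. Neutrophil markers, of which all 8 exceeded a mean of 1 CPM, summed to 63398 to 71682 CPM in WT-vehicle mice, 58460 to 104823 CPM in WT-sudemycin mice, 84781 to 139358 CPM in S34F-vehicle mice and 71988 to 121437 CPM in S34F-sudemycin mice. Of the 8, 4 rose and none fell between WT-vehicle and S34F-sudemycin mice (edgeR, FDR<10%), while 25.1% of all genes rose and 25.1% fell. The mean log2 level of the neutrophil markers ran against the mean of the 9 genes within groups (r = -0.64, 20 mice). Of the 8 markers of eosinophils, basophils and mast cells, 5 fell with the drug in WT mice (edgeR, FDR<10%), or 2 without mouse 8 of the treated group, 2 in S34F mice and 6 between WT-vehicle and S34F-sudemycin mice. Of all genes, 1.89%, 5.85% and 25.1% fell in the same comparisons. The sum of these 8 markers was 303 to 515 CPM in WT-vehicle, 220 to 313 in WT-sudemycin, 263 to 376 in S34F-vehicle and 163 to 238 in S34F-sudemycin mice. Of 8 megakaryocyte markers, 5 fell and 1 rose between WT-vehicle and S34F-sudemycin mice, with sums of 57.1 to 89.2 and 29.6 to 59.6 CPM. All 7 B cell markers fell in that comparison, with sums of 35.3 to 125 and 31.1 to 47.2 CPM. No marker of these lists was at or under 3 counts in every mouse. Gata1, Tal1 and Nfe2 are used by some of these cells, and the part of these cells in the members' values was not tested.

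All 8 cell division markers rose in S34F-sudemycin mice against both WT groups, with Top2a, the topoisomerase of dividing cells, higher by 0.55 ± 0.08 (log2, SE) between the genotypes under sudemycin D6 (edgeR FDR 0.000849). With 1 mouse left out, 6 to 8 rose between the genotypes under sudemycin D6. Under vehicle 3 of the 8 rose between the genotypes, or 2 to 8 with 1 mouse left out. The list medians were 0.31 under vehicle and 0.37 under sudemycin D6. Of all genes, 19.7% and 17.2% rose in these 2 comparisons, and 25.1% between WT-vehicle and S34F-sudemycin mice. Markers of T and NK cells (6), macrophages (8), stem and progenitor cells (6) and osteoclasts (5, of which 3 were tested) had at most 3 genes called in one direction in any comparison. With the drug in S34F mice these included 3 of the 6 stem and progenitor cell genes, Kit, Cd34 and Flt3, and 2 of the 6 T and NK cell genes, Cd3d and Cd3g, which fell while 5.85% of all genes did. These genes were named once their values were known, and the 3 others of the stem and progenitor list, Mpo, Ctsg and Elane, were not called. One model of all mice called 1 gene of each of these lists, and the T and NK cell count was 0 without mouse 2 or mouse 10 of the S34F-sudemycin group. The part of these cells in the members' values was not tested.

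The red cell membrane and skeleton genes other than Slc4a1 were tested as the nearest group of the pathway, with 16 genes. Between WT-vehicle and S34F-sudemycin mice, 15 of the 16 fell and none rose (edgeR, FDR<10%), with a list median of -1.01 on the log2 scale against -0.003 for all genes. Between the genotypes under sudemycin D6, 11 fell, with a median of -1.08. Within groups the mean of this list followed the mean of the 9 members (r = 0.985, 20 mice). This count was 4, 6 and 6 without mouse 6 or mouse 10 of the WT-sudemycin group or mouse 9 of the S34F-sudemycin group, and 5 without a filter on low counts. Under vehicle 3 fell between the genotypes, and 11 did without mouse 3 of the S34F-vehicle group. Over all genes, 25.1% fell between WT-vehicle and S34F-sudemycin mice, and 19.6% and 19.8% fell between the genotypes under sudemycin D6 and vehicle. With the drug, none was called in WT mice by edgeR or DESeq2, and in S34F mice 1 fell and 1 rose by edgeR and 4 fell by DESeq2.

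The 4 most abundant genes of this list were Epb4.1, Slc2a1, Spnb1 and Aqp1. Aqp1 was the one that fell with the drug in S34F mice, from 23.4 ± 12.4 CPM (SD, n = 5) to 9.40 ± 3.25 CPM (log2 difference -1.32 ± 0.35, SE; edgeR FDR 0.0565). The call was lost without mouse 2, 6, 9 or 12 of the S34F-sudemycin group or mouse 1 of the S34F-vehicle group, without a filter on low counts and in one model of all mice. Slc2a1, the glucose transporter GLUT1, rose in the same comparison by 0.31 ± 0.07 (FDR 0.0209) and fell between the genotypes under vehicle, by 0.76 ± 0.11 (FDR 0.000435). Spnb1, which encodes beta spectrin, had 28.4 ± 7.20 CPM in WT-vehicle mice and 13.6 ± 3.44 CPM in S34F-sudemycin mice (-1.07 ± 0.21, FDR 0.00184). Epb4.1, which encodes protein 4.1, fell by 0.30 ± 0.09 in that comparison (FDR 0.0162).

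Of 14 other erythroid transcription regulators, 2 fell with the drug in WT mice, namely Gata2 and Mafk, 2 names chosen once their values were known. In S34F mice 5 fell and 1 rose with the drug, though only 1 fell without mouse 1 of the vehicle-treated group. Between the genotypes 8 fell and 2 rose under vehicle, 6 fell under sudemycin D6, and 10 fell and 1 rose between WT-vehicle and S34F-sudemycin mice. Over all genes, 1.89% and 5.85% fell with the drug in WT and S34F mice, and 4.94% rose in S34F mice. Between the genotypes 19.8% of all genes fell and 19.7% rose under vehicle, and 19.6% fell under sudemycin D6. Between WT-vehicle and S34F-sudemycin mice 25.1% fell and 25.1% rose. The most abundant of the 14 regulators were E2f2, Bach1, Foxo3 and Myb. Foxo3, a stress-responsive factor of maturing red cells, fell between the genotypes under vehicle by 0.40 ± 0.09 (log2, SE; edgeR FDR 0.00585) and under sudemycin D6 by 0.35 ± 0.08 (FDR 0.00714). Myb, which keeps progenitors dividing, fell with the drug in S34F mice by 0.28 ± 0.09 (FDR 0.0852) and rose between the genotypes under vehicle by 0.23 ± 0.08 (FDR 0.0373).

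Of 9 genes of signalling from the erythropoietin receptor, 6 fell and 1 rose between the genotypes under vehicle, 6 fell under sudemycin D6, and none was called with the drug in either genotype by edgeR or DESeq2. Over all genes, 19.8% fell and 19.7% rose between the genotypes under vehicle, and 19.6% fell under sudemycin D6. Pim1, a kinase induced through STAT5, had 149 ± 27.8 CPM (SD, n = 5) in WT-vehicle and 54.8 ± 6.42 CPM in S34F-vehicle mice (log2 difference -1.46 ± 0.13, SE; edgeR FDR 7.44e-06). Stat5b fell in the same comparison by 0.37 ± 0.07 (FDR 0.00271) and Stat5a by 0.20 ± 0.07 (FDR 0.0401), while Jak2, the kinase bound to the receptor, rose by 0.22 ± 0.07 (FDR 0.033). All of these genes also act in other marrow cells.

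Of 14 iron genes, none was called with the drug in WT mice and 2 rose in S34F mice, and between the genotypes 5 fell and 2 rose under vehicle and 2 fell and 2 rose under sudemycin D6. Over all genes 19.8% fell and 19.7% rose between the genotypes under vehicle, and 19.6% and 17.2% under sudemycin D6, so nothing is read from iron counts of this size. Fth1, the heavy chain of ferritin, fell between the genotypes under vehicle from 538 ± 80.4 to 281 ± 17.2 CPM (SD, n = 5; log2 difference -0.95 ± 0.10, SE; edgeR FDR 5.83e-05). Of 8 heme synthesis genes, 0 and 1 fell with the drug in WT and S34F mice, 2 and 3 fell between the genotypes under vehicle and sudemycin D6, and none rose. The 2 under vehicle were 0 without mouse 1 of the WT-vehicle group and in one model of all mice, and against the same shares of all genes nothing is read from these counts. Ppox, the most abundant of them, fell under sudemycin D6 by 0.44 ± 0.08 (FDR 0.00173). Of 7 globin genes matched, 4 were tested, and 2 fell between the genotypes under sudemycin D6 (1 to 3 over the alternatives), namely Hba-a1 (log2 difference -0.72 ± 0.29, SE; edgeR FDR 0.0892) and Hbb-b2 (-1.50 ± 0.44, FDR 0.0252). Between WT-vehicle and S34F-sudemycin mice Hbb-b2 fell from 35.7 ± 16.9 to 19.7 ± 7.01 CPM (-0.85 ± 0.33, FDR 0.0602), and no globin was called without mouse 9 or mouse 10 of the S34F-sudemycin group, while 1 fell and 2 rose without mouse 1 of the WT-vehicle group. Hbb-b1 had 193 ± 106 CPM in WT-vehicle mice and 304 ± 75.8 CPM in S34F-sudemycin mice (log2 difference 0.66 ± 0.32, FDR 0.129). Globin copies are near-identical, so the share of reads of each copy is uncertain. Of 14 other carbonic anhydrase genes, 7 or 8 were tested. With the drug none was called in WT mice, and 1 of 7 fell in S34F mice, or 0 in one model of all mice. Between the genotypes 3 of 7 rose under vehicle (0 to 3 with 1 mouse left out) and 1 of 7 under sudemycin D6, and none fell. Of all genes, 5.85% fell with the drug in S34F mice, and 19.7% and 17.2% rose between the genotypes, so nothing is read from these counts. Car5b, which is X-linked, rose between the genotypes under both treatments. None of the genes of the 7 lists was called for the interaction in edgeR or DESeq2, with 10 of 73 at an unadjusted p below 0.05 in edgeR.

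**Figure D4:**
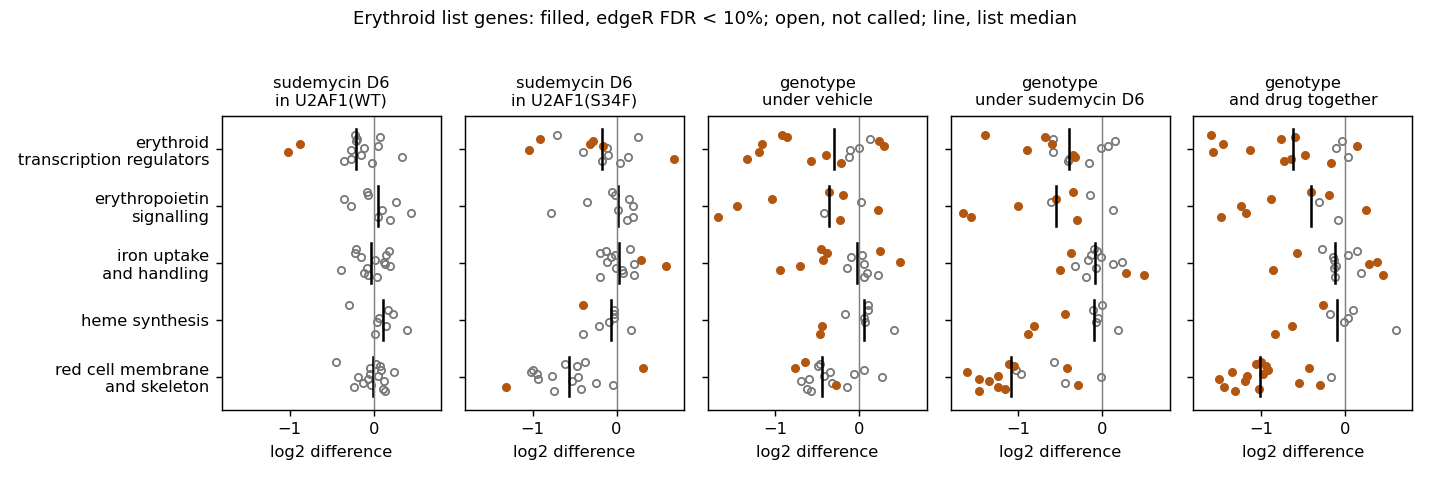
Log2 difference of the genes of 5 erythroid lists (points) in 5 comparisons, the second group minus the first, with the list median (black line). Filled points passed an edgeR FDR<10%. The 16 membrane genes have medians of -1.08 between the genotypes under sudemycin D6 and -1.01 for genotype and drug together.

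Splicing of the members was compared by the share that each junction took of the reads at its splice site, which does not depend on the level of the gene. U2AF1 contacts the end of the intron, so the last 20 intron bases and first 3 exon bases are shown for the sites that the results turn on, read from mm9 on the strand of the gene, with the 3 last intron bases in capitals.
Car1, exon passed over: ggatgtgtttgttcatgTAGgtc
Car1, next exon: ataactctctttcatttCAGttc
Tfrc, exon passed over: ctttattttttatctttTAGcat
Tfrc, next exon: cctaatgtctttaatttTAGggt
Nfe2, common exon: cctttctttcttcaacaCAGgtt

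These sites lie at chr3:14777924-14777946 (−) and chr3:14776334-14776356 (−) for Car1, chr16:32617163-32617185 (+) and chr16:32618284-32618306 (+) for Tfrc and chr15:103081527-103081549 (−) for Nfe2. Of 69 annotated 3′ splice sites of the members with at least 20 reads, 48 had C, 21 had T and 0 had A or G at the third base from the end of the intron, or 69.6%, 30.4% and 0%. Over 141303 such sites of all genes, 63.5% had C, 30.3% had T, 5.85% had A and 0.326% had G.

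At the shared 3′ splice site of Nfe2, most reads came from a 5′ splice site that begins with GC in place of GT. It had 16382 reads over the 20 mice, and the next junction, from a nearer 5′ splice site with GT, had 2991 reads. The last 3 exon bases and first 6 intron bases of both, with the first 2 intron bases in capitals, are shown to mark this difference. The first lies at chr15:103085575-103085583 (−) and the second at chr15:103083468-103083476 (−).
Nfe2, first: aagGCgagt
Nfe2, second: cagGTgaga

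No junction share of a member passed FDR<10% with a difference over 1 percentage point in any of the 5 comparisons. With the drug, 0 of 23 member shares in WT mice and 0 of 22 in S34F mice were called, against 1.15% and 1.41% of the shares of all genes. Between the genotypes, 0 of 29 were called under vehicle (2.94% of all), 0 of 23 under sudemycin D6 (2.76%) and 0 of 27 between WT-vehicle and S34F-sudemycin mice (4.86%). At an unadjusted p below 0.05 there were 2, 2, 2, 1 and 3 member shares in the same order, and limma on the logit of the share also called 0. Between the genotypes under vehicle, 1 share was called without mouse 1 of the S34F group or without mouse 5 of the WT group. The shares came from 7 members, since Car2 and Klf1 had no junction with an alternative that reached the limits.

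The junction of Car1 that passes over an annotated exon near the start of the gene had 700 reads over the 20 mice. Its share of the reads at the 3′ splice site was 4.39%, 4.50%, 4.57%, 7.12% and 9.27% in WT-vehicle mice and 6.26%, 9.83%, 12.5%, 13.8% and 17.8% in WT-sudemycin mice. The means differed by 6.06 percentage points, with a 95% interval of 1.16 to 11.3 (exact permutation test, two-sided p = 0.0317, adjusted p = 0.476 over 15 tests, quasi-binomial FDR 0.441). In S34F mice the share was 5.67% ± 1.19 (SD, n = 5) with vehicle and 8.56% ± 3.06 with sudemycin D6, a difference of 2.89 points with an interval of -0.41 to 6.65. Between the genotypes under vehicle the difference was -0.31 points (-2.99 to 2.13). Each mouse had 88 to 1276 reads at this site, and the 2 sudemycin-treated groups had the fewest.

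For Tfrc, the junction that passes over an exon joins 2 annotated splice sites that the annotation does not pair. Its share was 5.29% ± 4.99 (SD, n = 5) in WT-vehicle, 4.55% ± 1.31 in WT-sudemycin, 11.5% ± 7.98 in S34F-vehicle and 6.92% ± 3.39 in S34F-sudemycin mice. Under vehicle the WT mice had 0%, 0%, 6.88%, 9.14% and 10.4%, and the S34F mice had 3.77%, 6.32%, 8.0%, 16.8% and 22.8%. The difference of 6.25 points had an interval of -3.61 to 16.4 and did not pass the test (exact permutation p = 0.183, quasi-binomial FDR 0.144). The 0 of 388 and 0 of 219 reads in 2 mice allow shares of up to 0.773% and 1.37% by counting error alone.

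For Nfe2, the junction from the nearer 5′ splice site took 12.9% ± 1.96 (SD, n = 5), 13.3% ± 1.97, 14.4% ± 1.77 and 13.6% ± 1.34 of the reads at the shared site in WT-vehicle, WT-sudemycin, S34F-vehicle and S34F-sudemycin mice. The intervals of the 5 differences all held 0, and the widest reach was 4.35 points, between the genotypes under vehicle. Nfe2 had 732 to 1625 reads per mouse at this site, the most of the 3, so its shares are the most precise here. Gata1, Epor, Slc4a1 and Tal1 had at most 46 reads over the 20 mice on their most frequent alternative junction, too few to show a difference of a few points.

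**Figure D5:**
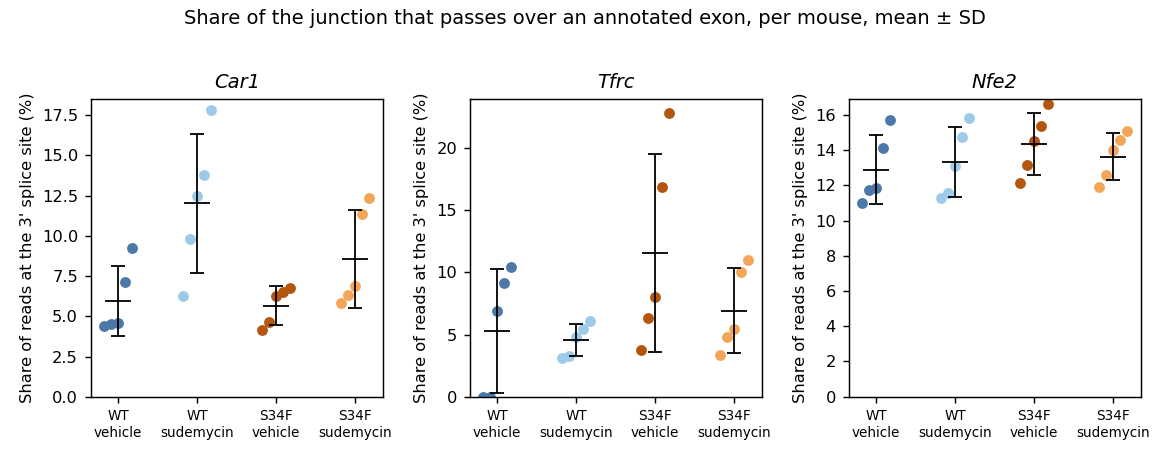
Share of the reads at a 3′ splice site (percent, vertical axis from 0) that fell on the junction passing over an annotated exon, for Car1, Tfrc and Nfe2 in 5 mice per group. Points are mice and black lines are the mean ± SD. The Car1 share runs from 4.39% to 9.27% in WT-vehicle and from 6.26% to 17.8% in WT-sudemycin mice, and the Nfe2 groups overlap.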

How the data were processed

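Bulk bone marrow RNA was sequenced from 20 mice, 5 per group, with groups taken from the sample labels. The authors aligned reads to mm9 with TopHat2 (2.0.8, submitters' processing notes) and deposited raw read counts per gene and per splice junction, without normalization. Counts without a gene symbol made up 0.0621% of the total and were kept under their gene identifiers. Gene counts were tested with the quasi-likelihood test of edgeR 4.0.16 in R 4.3.3, one fit per pair of groups and one of all mice for the interaction, after TMM scaling and the filter of edgeR on low counts, with Benjamini-Hochberg adjustment over all genes (FDR<10%). Levels are TMM-scaled CPM, and log2 CPM used a prior count of 2. Standard errors are the size of the log2 difference divided by the square root of its F statistic.

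Each junction's share of the reads at its splice site was tested by a quasi-binomial model for sites averaging 10 or more reads in each mouse, and called at FDR<10% with a difference over 1 percentage point. For 3 member junctions an exact permutation test over 252 splits was used, whose smallest two-sided p is 0.00794, with 95% intervals from inverting it. Intervals and limits from read counts cover counting error only. Scripts were tested on simulated data. Alternatives were DESeq2 1.42.0, limma 3.58.1, other filters and scalings, one model of all mice, a fit with a replicate block, and fits that omit one mouse.

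The members and lists were chosen with earlier results of these data known. From each list up to 4 genes were named, those with the highest mean CPM, and from the search for like genes the nearest 10 and the nearest 1 per member. Gata2, Mafk, Cd34, Flt3 and Cd3g were named outside this rule, because they were called. From each member the alternative junction with the most reads was described. The labels give the mice as separate samples, and p-values measure the spread between them.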

Additional observations from a re-analysis of the deposited data

How the results depend on the processing

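Of 1017 values of the members under alternatives, 1015 moved by less than their spread. The sign changed in 34, none of them among the 24 of 54 differences that were at least 0.5 in size on the log2 scale. From sums of junction reads, Tal1 differed by -0.96 with the drug in U2AF1(S34F) mice and by -1.18 for genotype and drug together. With DESeq2, 844 genes were called for the drug with U2AF1(WT) (453 in edgeR) and 116 for the interaction (2), and 4 (2) and 21 (12) erythroid pathway genes for the drug in each genotype, U2AF1(WT) first. One model of all mice called for the drug 1072 genes with U2AF1(WT) and 788 (1588) with U2AF1(S34F), and 5 and 2 erythroid pathway genes. For the interaction, 10 genes were called without a filter and 16 at a mean of at least 50 counts. For junction shares, limma called 112, 134, 754, 663 and 1730 in the 5 comparisons (916, 1136, 2384, 2192 and 3917), and a mean of at least 20 reads left 755 for the drug in U2AF1(S34F) mice. The cause of these differences was not tested.

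Leaving out each mouse in turn gave 191 (without vehicle-treated U2AF1(WT) mouse 1) to 730 (without mouse 2) genes for the drug with U2AF1(WT), 913 (without sudemycin-treated mouse 2) to 1736 in U2AF1(S34F) mice, and 2 to 87 for the interaction (without vehicle-treated U2AF1(S34F) mouse 5). Erythroid pathway genes for the drug in U2AF1(S34F) mice numbered 4 (without sudemycin-treated mouse 2 or vehicle-treated mouse 1) to 14, and junction shares between the genotypes under sudemycin D6 numbered 1460 (without U2AF1(S34F) mouse 9) to 2359.

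Only the genotype comparisons share replicate numbers, 3 under vehicle and 4 under sudemycin D6. Deviations of same-numbered mice correlated from -0.18 to 0.37, and 2 of 7 mice matched their own number best. So few values cannot decide whether same-numbered mice were handled together, and the main fits treat the mice as unpaired. With the replicate block, in which mice without a partner do not bear on the difference, 4628 and 3718 genes, 26 and 36 erythroid pathway genes, and 1 and 24 junction shares were called under vehicle and sudemycin D6.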
